A study of Sus scrofa with 21 samples.

Results

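The microbrush libraries that carried much smooth muscle RNA are set here beside those that carried little. The series measured RNA from pig vessels by bulk sequencing in 21 libraries: 10 taken with a 3D-printed microbrush in a peripheral kidney or liver artery, 4 taken in such arteries with a Nitinol wire that carried no brush, 4 of aorta cut out by surgery and 3 of whole blood. Of the 21, 9 microbrush libraries are described: 5 muscle-rich ones (microbrush 1, 2, 5, 7 and 9) and 4 muscle-poor ones (microbrush 3, 6, 8 and 10). They were chosen by their own measured values, the mean over MYH11, ACTA2, MYL9 and ITGA7 of log2(CPM + 1), where CPM is counts per 1000000. In microbrush 1, 2, 5, 7 and 9 that mean was 10.80, 10.82, 12.46, 11.38 and 12.15, and in microbrush 3, 6, 8 and 10 it was 8.44, 6.67, 7.25 and 8.21. The lowest muscle-rich library was therefore microbrush 1 at 10.80 and the highest muscle-poor one microbrush 3 at 8.44. Microbrush 4, with a mean of 4.84 and only 3831 genes detected, was left out.

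The brushed arteries belonged to pigs 243K and 248K, whose strain, age and treatment the labels do not give. The muscle-rich class held 3 kidney and 2 liver libraries, 3 of them from pig 243K and 2 from 248K. The muscle-poor class held 2 kidney and 2 liver libraries, 2 from each pig. Each combination of pig and organ had libraries of both classes: 2 and 5 against 10 in the kidney of 243K, 9 against 6 in the liver of 243K, 1 against 3 in the kidney of 248K, and 7 against 8 in the liver of 248K. All 4 aorta libraries came from another pig, 237053, and nothing in the labels says whether the microbrush libraries of 1 pig and organ came from separate passes or separate vessels. P-values below therefore measure the spread between these libraries, which may in part be technical.

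An artery is a tube of layers. A single sheet of endothelial cells faces the blood, and under it lie a basement membrane, elastic sheets and the media, whose smooth muscle cells contract through smooth muscle myosin and actin. The transcription factor SRF and its muscle partner myocardin drive the genes of that contractile apparatus. Pericytes and smooth muscle cells together are called mural cells. Fibroblasts of the outer coat make much of the fibrillar collagen, which smooth muscle cells make too. In bulk RNA, fewer cells of a type and less RNA per cell cannot be told apart.

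The libraries differed in more than muscle. Total estimated counts ran from 1721889 to 7532593 in the muscle-rich class and from 1144932 to 10188552 in the muscle-poor class. At an equal depth of 1000000 counts, 16631, 18682, 15744, 18876 and 13050 genes were detected in microbrush 1, 2, 5, 7 and 9, and 19534, 10748, 18264 and 19020 in microbrush 3, 6, 8 and 10. Microbrush 6 thus stood apart within the muscle-poor class, with the most counts and the fewest genes. A pair of abundant identifiers without a gene symbol took 33.2% of the counts of microbrush 8 and 38.5% of microbrush 6, but 5.64% and 6.94% of microbrush 3 and 10. In the muscle-rich class they took 31.7% of microbrush 1, 15.1% of microbrush 7 and 2.66% to 5.72% of the other 3. Levels below are CPM after TMM scaling, which reduces the weight of such dominant genes, and they are not divided by gene length, so they are compared within a gene only. A count of 0 allowed a level of up to 0.489 CPM in the deepest scaled library (microbrush 9) and up to 1.55 CPM in the shallowest (microbrush 8), for counting error only.

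Of 15745 genes with at least 10 counts in at least 4 of the 9 libraries, the split genes not among them, 1339 (8.5%) had every muscle-rich library above every muscle-poor one. The reverse held for 73 (0.464%). The median difference over all kept genes was -0.03, as the median of log2(CPM + 1) in the muscle-rich class minus that in the muscle-poor class, and every difference between the classes below is on that scale. Because the classes were made from these same libraries, the contrast carries no test here, and its shares are a background for the gene groups that follow. Microbrush 6 limited both counts: without it 2873 (18.2%) of the same genes lay above and 1970 (12.5%) below. In 6 ways of scaling the libraries, 297 genes were above and 10 below in every one.

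The split genes themselves differed in how well they separated the classes. MYH11, the smooth muscle myosin heavy chain, was at 35377, 15858, 74923, 32206 and 66563 CPM in microbrush 1, 2, 5, 7 and 9 and at 2301, 514, 695 and 1836 CPM in microbrush 3, 6, 8 and 10, the order used throughout. MYL9, a myosin light chain that platelets also carry, was at 2822, 537, 2742, 1539 and 2290.4 CPM in the muscle-rich libraries and at 193, 7655, 1799 and 188 CPM in the muscle-poor ones. Its highest level was thus in a muscle-poor library, microbrush 6, and its classes overlapped. The other 3 split genes did not overlap.

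Genes of the contractile apparatus outside the split were higher in the muscle-rich libraries as a group. All 18 kept members of the contractile list had a positive difference, with a median of 3.38, and 14 of the 18 had no overlap between the classes. CNN1, calponin, which binds actin and restrains the myosin motor, was at 772, 348, 1522, 751 and 3047 CPM in the muscle-rich libraries against 33.2, 14.8, 9.8 and 37 CPM in the muscle-poor ones, a difference of 5.05. Its lowest muscle-rich value, in microbrush 2, was many times its highest muscle-poor value, in microbrush 10. DES, the intermediate filament desmin, was at 1109, 468, 1618, 493 and 1328 CPM against 83.6, 18.8, 22.2 and 76.2 CPM, a difference of 4.71. TAGLN, the actin-binding transgelin, was at 2156, 885, 5203, 2258 and 4461 CPM against 107.97, 371, 115.3 and 78 CPM. Here the highest muscle-poor value belonged to microbrush 6 and still lay below microbrush 2, the lowest of the muscle-rich class. LMOD1, which nucleates smooth muscle actin filaments, differed by 4.55 (muscle-rich 630.2 to 3403 CPM, muscle-poor 31.3 to 194 CPM), and TPM2, a tropomyosin, by 4.50 (1193 to 6479 against 78.4 to 145 CPM).

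The 4 contractile members that overlapped all did so with microbrush 6 high among the muscle-poor libraries; they are named here after their values were seen. CALD1, caldesmon, was at 9031, 3301, 11520.3, 5398 and 12004 CPM in the muscle-rich libraries and at 661, 19987, 4065 and 562 CPM in the muscle-poor ones. FLNA, the actin cross-linker filamin A, was at 934, 6681, 1586 and 850.3 CPM in the muscle-poor libraries, and the lowest muscle-rich library, microbrush 2, had 5131 CPM. Both proteins occur in many cell types, and filamin A is abundant in platelets. Without microbrush 6, FLNA, TPM1 and PDLIM7 no longer overlapped and 17 of the 18 members lay apart, beside 18.2% of all genes in that setting; CALD1 still overlapped through microbrush 8. MYLK, the kinase that starts smooth muscle contraction, did not overlap in the 9 libraries (762 to 2917 against 105.2 to 487 CPM, difference 3.40). SYNPO2, a Z-disc and dense-body protein, was at 5.57 to 147 CPM in the muscle-poor libraries with microbrush 6 the lowest, and at 816 to 3891 CPM in the muscle-rich ones.

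**Figure D1:**
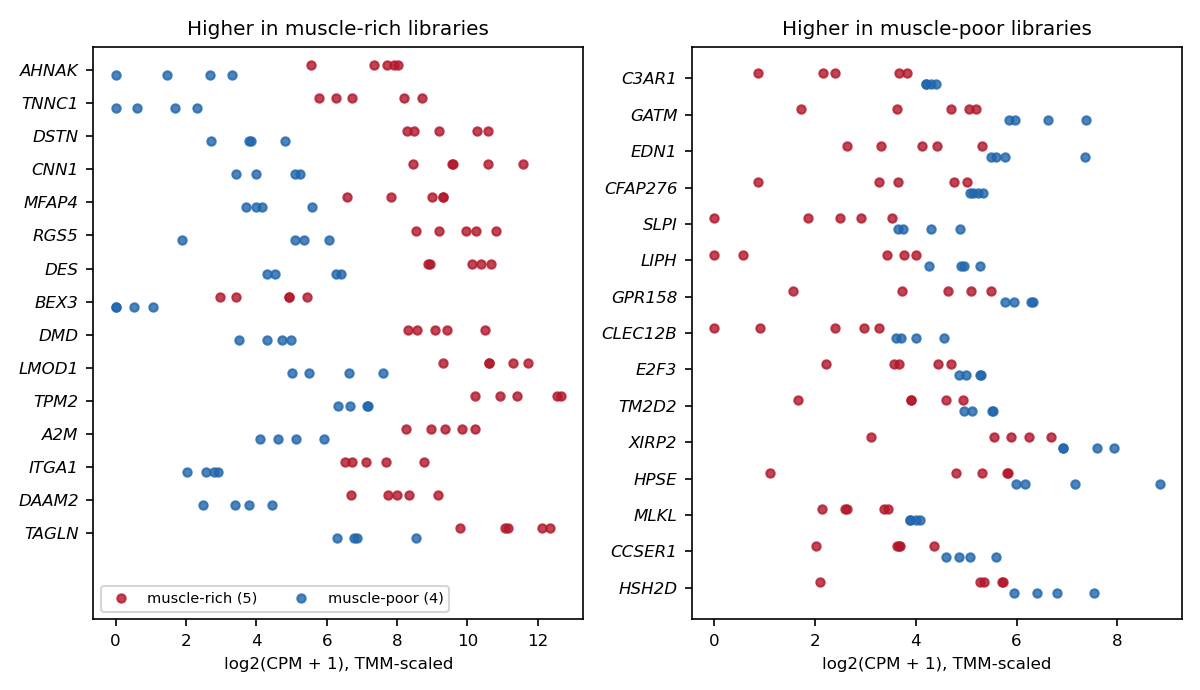
Levels in each library, as log2(CPM + 1) after TMM scaling, of the 15 genes with the largest differences in each direction among those whose classes did not overlap. Red points are the 5 muscle-rich and blue points the 4 muscle-poor libraries. The gaps on the left (CNN1 difference 5.05, TAGLN 4.33) are wider than those on the right (C3AR1 -1.86, HSH2D -1.25).

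Among genes with a symbol, no overlap and a median of at least 10 CPM in the higher class, the 15 with the largest differences toward the muscle-rich class were AHNAK, TNNC1, DSTN, CNN1, MFAP4, RGS5, DES, BEX3, DMD, LMOD1, TPM2, A2M, ITGA1, DAAM2 and TAGLN, with differences from 5.63 down to 4.33. All 15 kept their separation under all 6 scalings. AHNAK, which encodes a very large scaffold protein at the cell membrane, was at 241, 45.8, 207, 159.9 and 260.2 CPM against 8.92, 5.44, 0 and 1.73 CPM, a difference of 5.63. TNNC1, the calcium-binding troponin of slow and cardiac muscle, was at 76.4, 54.3, 295, 103.9 and 415 CPM against 4.02, 0, 0.516 and 2.23 CPM. Both were at a few CPM or less in most muscle-poor libraries, so the log2(CPM + 1) scale understates their ratios. DSTN, the actin-severing protein destrin, was at 583, 309, 1241, 359.6 and 1525 CPM against 27.4, 5.57, 12.9 and 13.4 CPM, a difference of 5.37. DMD, the dystrophin that ties the cytoskeleton to the matrix, was at 381, 544, 689.7, 314 and 1434 CPM against 25.6, 18.8, 10.3 and 30.8 CPM, with microbrush 9 highest. ITGA1, the α subunit of a collagen-binding integrin, was at 90.6 to 438 CPM against 3.1 to 6.57 CPM. A2M, a secreted protease inhibitor, was at 305 to 1194 CPM against 16.1 to 59.5 CPM. In the RefSeq annotation of Sscrofa11.1, CNN1 lies on chromosome 2, position 70183370 to 70190756, DES on chromosome 15, position 121428539 to 121435426, and AHNAK on chromosome 2, position 9186984 to 9216450.

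The transcription factors linked to smooth muscle split into a group that separated the classes and a group that did not. Of 12 kept, 7 had a positive and 5 a negative difference, with a median of 0.66, and 5 did not overlap: MYOCD, SRF, HEY2, TEAD1 and MEF2C. MYOCD, myocardin, was at 77.6, 59.2, 75.7, 69 and 250.4 CPM in the muscle-rich libraries against 9.13, 2.47, 4.13 and 8.47 CPM in the muscle-poor ones, a difference of 3.46. SRF was at 137, 46.7, 208, 96.2 and 175 CPM against 20.8, 7.63, 25.8 and 18.7 CPM, a difference of 2.74. Both were lowest in microbrush 6. HEY2, a Notch-driven repressor, was at 61 to 251 CPM against 17.5 to 35.3 CPM (difference 1.70), a separation held in 4 of the 6 scalings. TEAD1 and MEF2C overlapped under RLE scaling, in plain CPM and in totals without wall genes, where 3 members of the list lay apart each time. With TMM over the 9 libraries, and without the 2 unnamed identifiers, 4 members lay apart, MYOCD, SRF and HEY2 among them. At least 1 of TEAD1 and MEF2C therefore overlapped there too. MRTFA, the actin-sensing partner of SRF, overlapped with a difference of 1.70, again through microbrush 6 at 146 CPM beside 132 CPM in microbrush 2. KLF4, which opposes the contractile program in smooth muscle, overlapped at 11.3 to 37.4 CPM against 16.5 to 28.9 CPM.

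Receptors, channels and enzymes that set vessel tone showed a smaller shift. Of 19 kept members, 12 had a positive and 7 a negative difference, with a median of 1.08, and 6 did not overlap: ITPR1, ATP2A2, KCNMB1, RYR2, ADRA1D and KCNMA1. Most of these release, pump or answer to calcium. ITPR1, a calcium release channel of the sarcoplasmic reticulum, was at 357, 263, 495, 211 and 823 CPM against 29.2, 136, 41.3 and 45.5 CPM, a difference of 3.01. ATP2A2, the pump that refills the same store, was at 390.1, 211, 467, 261 and 556 CPM against 55.9, 77.1, 44.9 and 53.9 CPM, a difference of 2.81. KCNMB1, the smooth muscle β subunit of the calcium-activated potassium channel, was at 41.5 to 182 CPM against 2.47 to 19.6 CPM, and its pore subunit KCNMA1 at 90.9 to 168 against 16.5 to 62.8 CPM. The separation of KCNMB1 held in 4 of the 6 scalings. RYR2, ADRA1D and KCNMA1 overlapped under RLE scaling, in plain CPM and in totals without wall genes, where 3, 2 and 2 members of the list lay apart. RYR2, the ryanodine-receptor release channel, reached 1039 CPM in microbrush 9 where the other muscle-rich libraries had 65.2 to 195 CPM. PRKG1, the kinase through which cyclic GMP relaxes muscle, overlapped through microbrush 6 (100.4 CPM) although its difference was 2.09. AGTR1, the angiotensin receptor, was low in both classes, at 0.489 to 19.1 and 0 to 17.2 CPM.

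Mural genes fell into the same pair of patterns. Of 10 kept members, 6 were positive and 4 negative, with a median difference of 2.03, and the 5 positive ones with the largest differences did not overlap. RGS5, a brake on G-protein signalling and a classic pericyte gene, was at 995, 582, 1795, 372 and 1209 CPM against 65.4, 2.68, 33 and 40.1 CPM, a difference of 4.74. MCAM, a surface adhesion molecule of smooth muscle and pericytes, was at 459.6, 302, 1056, 439 and 1164 CPM against 46, 8.04, 18.1 and 41.4 CPM. Microbrush 6 was the lowest library for both. NOTCH3, the Notch receptor of arterial smooth muscle, was at 703, 415, 1453, 633 and 1065 CPM against 120.2, 30.7, 68.1 and 95.4 CPM, a difference of 3.11. CSPG4, the NG2 proteoglycan, differed by 3.48, and PDGFRB, the receptor for the growth factor that recruits mural cells, by 3.04. The members with negative differences were KCNJ8, HIGD1B, NDUFA4L2 and RGS4, of which the first 3 are best known from pericytes of small vessels. All 4 overlapped in the 9 libraries. Without microbrush 6, NDUFA4L2 lay apart toward the muscle-poor class.

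Basement membrane and elastic fibre genes were also mostly more abundant in the muscle-rich libraries, with microbrush 6 as an exception for some of them. For the basement membrane the median difference was 3.30 over 9 kept members, 8 of them positive, and 4 did not overlap. COL4A2, a chain of the collagen that forms the sheet, was at 2206, 1198, 5488, 3141 and 6041 CPM against 320.0, 526, 109.4 and 262 CPM. LAMA4, a laminin chain of vascular basement membranes, was at 189.8, 195, 354, 58.1 and 283 CPM against 13.9, 40.4, 3.61 and 14.3 CPM, a difference of 3.70. LAMA5, the other vascular laminin α chain, overlapped at 666, 392, 1303, 926 and 1422 CPM against 120.5, 588, 25.3 and 56.6 CPM. The overlap came from microbrush 6 alone, and HSPG2, the proteoglycan perlecan, behaved alike with 3782 CPM in microbrush 6 and 287, 78.4 and 208 CPM in microbrush 3, 8 and 10. Without that library 8 of the 9 members lay apart, beside 18.2% of all genes.

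Elastic fibre genes had a median difference of 1.92 over 9 kept members, 8 of them positive, with 4 not overlapping. Under RLE scaling and in plain CPM, 2 members lay apart toward the muscle-rich class and 1 toward the muscle-poor class. In totals without wall genes 2 lay apart toward the muscle-rich class and 0 the other way. MFAP4, a protein bound to elastic microfibrils, was at 225, 93.8, 627, 505 and 631 CPM against 17, 12.2, 14.7 and 46.8 CPM, a difference of 4.91. EMILIN1, found where elastin meets microfibrils, was at 102.9 to 499 CPM against 11.3 to 32.1 CPM. ELN, elastin itself, was at 1617, 883, 2575, 3658 and 11756 CPM against 419, 6028, 172 and 1107 CPM and overlapped. Here microbrush 6 exceeded 4 of the 5 muscle-rich libraries, and microbrush 10 exceeded microbrush 2. LTBP4, which steers elastin onto microfibrils, had 706 CPM in microbrush 6 against 46.4, 28.9 and 57.9 CPM in the other muscle-poor libraries and 136 to 994 CPM in the muscle-rich ones. FBN1, the microfibril protein fibrillin-1, did not overlap by a narrow margin (197.9 CPM in microbrush 2 against 197.8 CPM in microbrush 6), and only in 1 of the 6 scalings.

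The fibroblast and matrix list was mixed. Of 17 kept members, 10 were positive and 7 negative, and the 6 that did not overlap were COL3A1, MGP, COL1A1, COL6A3, COL1A2 and COL6A1: 5 collagen chains and MGP, an inhibitor of vessel calcification. COL3A1 was at 5646, 3927, 14876, 7822 and 28006 CPM against 369, 576, 106.8 and 1454 CPM, a difference of 4.08, and COL1A1 at 2675, 1831, 7565, 8574 and 26519 CPM against 321, 1427, 164 and 1712 CPM, a difference of 3.48. Type I collagen was highest in microbrush 9, a liver library. Separation of COL1A1 and COL6A3 was lost in 4 of the 6 scalings, that of COL3A1 and MGP in none. COL1A2 and COL6A1 overlapped at least in plain CPM and in totals without wall genes, where only COL3A1 and MGP lay apart. The 7 negative members were SFRP2, PI16, DPT, FBLN1, CLEC3B, LUM and PDGFRA, and all 7 overlapped; LUM, lumican, was at 7.72, 30.9, 64.4, 26.9 and 51.4 CPM against 40.5, 0, 37.1 and 49 CPM. The list's median difference, 0.79 under TMM scaling, turned to -0.15 under RLE scaling and -0.056 in plain CPM, where the median of all genes was itself -0.53 in place of -0.03. Relative to that of all genes, the list's median stayed positive, at 0.82, 0.37 and 0.47.

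Genes of modulated smooth muscle, the less contractile state described in injured vessels, had a median difference of 0.69 over 8 kept members (1.05 without microbrush 6). Only 1 of the 8 had no overlap, beside 8.5% of all genes toward the muscle-rich class. VIM, the filament protein vimentin, was at 1837, 646, 2992, 2228 and 4034 CPM against 186, 318, 89.8 and 166 CPM. TNC, the matrix protein tenascin-C, overlapped. It was at 556, 266 and 1228 CPM in the 3 muscle-rich kidney libraries, at 53.2 and 49.7 CPM in the muscle-rich liver libraries, and at 49.5 to 87.7 CPM in the muscle-poor ones. FN1, fibronectin, was highest in microbrush 6 at 6548 CPM, against 145 to 2489 CPM in the muscle-rich libraries and 188, 252 and 107.9 CPM in the other muscle-poor ones. SPP1, osteopontin, a secreted protein of that state, was low in both classes (3.39 to 12.1 and 11.14 to 17 CPM).

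**Figure D2:**
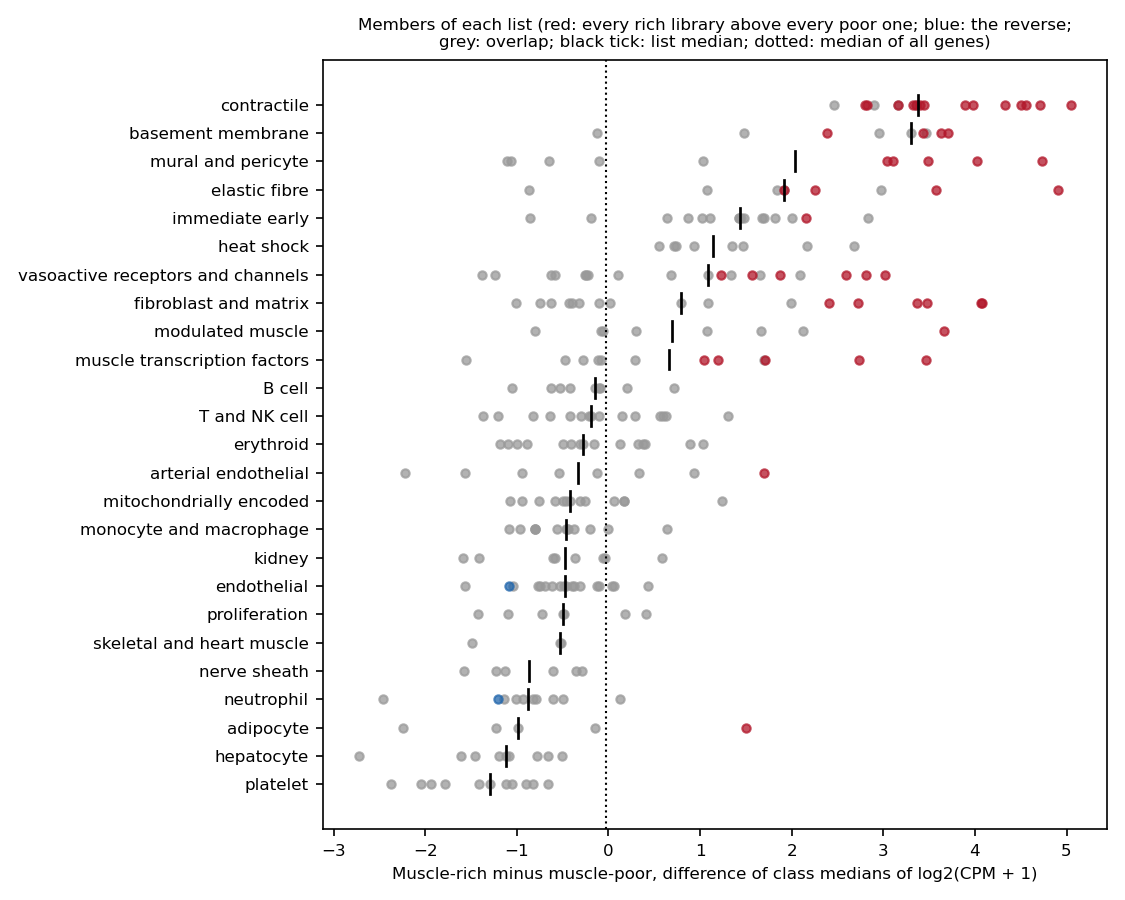
Difference of class medians of log2(CPM + 1), muscle-rich minus muscle-poor, for each kept member of 25 gene lists, with the list median as a black tick and the median of all genes (-0.03) as a dotted line. Red points are genes whose muscle-rich libraries all lay above the muscle-poor ones, blue points the reverse; the contractile list (median 3.38) and the platelet list (median -1.30) are at the ends.

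Genes of the endothelium, after which the series' design names the brush samples, were not more abundant in the muscle-rich class. Of 18 kept members 15 had a negative difference, the median was -0.47 (-0.24 without microbrush 6), and 1, ECSCR, a small endothelial surface protein, lay wholly above in the muscle-poor class at 34.7, 39.4, 29.9 and 29 CPM against 12.7, 17, 3.48, 23.8 and 14.7 CPM. That separation held in 4 of the 6 scalings. Without microbrush 6, 2 of the 18 lay apart toward the muscle-poor class and 1 toward the muscle-rich class. The mean log2(CPM + 1) over the list was lower in the muscle-rich libraries in all 4 combinations of pig and organ, with differences of -1.43 to -0.12. The hepatocyte list and the skeletal and heart muscle list were lower in all 4 as well. Medians of the kidney and proliferation lists were alike, at -0.47 and -0.50. PECAM1, the adhesion molecule of endothelial junctions that platelets and leukocytes also carry, was at 227, 50.1, 61.4, 82.6 and 288 CPM against 70.9, 990.1, 226 and 66 CPM. KDR, the main receptor for vascular endothelial growth factor, was at 76.8, 23, 34.8, 32.2 and 0.163 CPM against 21.2, 554, 196 and 22.7 CPM. Both classes held libraries high and low for these genes: microbrush 6 led for both, while microbrush 9 was second for PECAM1 and lowest for KDR. CDH5, the endothelial cadherin, was at 27.4, 12.8, 11.7, 22.3 and 35.7 CPM against 22.6, 147, 26.3 and 19.2 CPM, so 8 of the 9 libraries lay between 11.7 and 35.7 CPM and microbrush 6 far above. NOS3, the endothelial nitric oxide synthase, was likewise at 495 CPM in microbrush 6 and at 16.2 to 144 CPM elsewhere. The bare wires spanned 0.184 to 64.3 CPM for CDH5 and 83.8 to 626 CPM for KDR.

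Among 8 arterial endothelial genes the median difference was -0.33, and 0.05 without microbrush 6. Of the 8, 1 lay apart toward the muscle-rich class, beside 8.5% of all genes. GJA5, the gap junction protein connexin 40, was the one member apart, and in the muscle-rich direction, at 169, 129.7, 386, 173 and 659 CPM against 55.2, 56.1, 20.1 and 50.8 CPM (difference 1.69). That separation was lost in plain CPM and in totals without wall genes. Smaller arteries and the renin-producing cells of the kidney also carry it. GJA4, connexin 37, went the other way with overlap, at 5.02, 10.6, 6.09, 5.26 and 2.45 CPM against 9.5, 31.3, 19.1 and 16 CPM. DLL4, an arterial Notch ligand, was at 8.1, 26.4, 5.66, 29.1 and 2.94 CPM against 38.4, 8.04, 44.9 and 55.3 CPM. Its lowest muscle-poor value was that of microbrush 6. Without that library DLL4 lay apart toward the muscle-poor class, and EFNB2, another of the 8, toward the muscle-rich class.

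In the 9 libraries fewer genes lay wholly above in the muscle-poor class, 73 (0.464%) against 1339 (8.5%), and the largest differences were smaller. The gap between the counts depended on microbrush 6, without which they were 1970 (12.5%) against 2873 (18.2%). Without that library, 3 of 10 neutrophil, 3 of 9 hepatocyte, 2 of 5 adipocyte and 2 of 7 proliferation genes lay apart toward the muscle-poor class. Of these lists only the adipocyte one had a member apart the other way (1). The platelet and erythroid lists had 0 apart in either direction. In the 9 libraries, by the same limits, the 15 largest were C3AR1, GATM, EDN1, CFAP276, SLPI, LIPH, GPR158, CLEC12B, E2F3, TM2D2, XIRP2, HPSE, MLKL, CCSER1 and HSH2D, from -1.86 to -1.25, and 5 of them kept their separation in all 6 scalings (GATM, EDN1, LIPH, HPSE and HSH2D). C3AR1, the receptor for complement C3a on myeloid cells, was at 18.6, 17.3, 20.1 and 17.4 CPM in the muscle-poor libraries and at 4.24, 13.2, 3.48, 11.7 and 0.815 CPM in the muscle-rich ones. EDN1, the vasoconstrictor endothelin-1 secreted by endothelium, was at 53.3, 164, 47.5 and 44.1 CPM against 8.87, 20.4, 5.22, 38.6 and 16.3 CPM, a difference of -1.57. The muscle-poor values of both sat close together, apart from microbrush 6 for EDN1, while the muscle-rich values were spread. HPSE, heparanase, an enzyme stored in platelets, was at 70.9, 457, 142 and 62.8 CPM against 54.8, 38.8, 27, 55.7 and 1.14 CPM, with microbrush 6 highest. GATM, the first enzyme of creatine synthesis, was at 57, 165, 98 and 61.5 CPM against 25.1, 32, 11.3, 35.6 and 2.28 CPM. HSH2D, an adaptor protein of blood cells, was at 60.5 to 184 CPM against 3.31 to 52.2 CPM. Genes without such a link to blood or endothelium in this description lay apart too. GPR158 was at 53.9 to 78.9 CPM against 1.96 to 44.2 CPM, and CCSER1 at 23.2 to 47.4 CPM against 3.05 to 19.5 CPM. The genes described here thus do not stand for all 15, and whether the 15 share a cell source was not tested. The lowest library was microbrush 9 for 8 of the 15, microbrush 5 for 6, and microbrush 2 for MLKL.

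Genes of blood cells varied with the classes and with single libraries. All 11 kept platelet genes had a negative difference (median -1.30, but -0.33 without microbrush 6), and none separated the classes under TMM scaling, while 2 did in plain CPM. PPBP, a platelet granule chemokine, was at 239.6, 54.7, 33.9, 136 and 3.91 CPM against 53.7, 2436, 745 and 70 CPM. RGS18, a signalling regulator of platelets, was at 178, 78.8, 24.4, 141 and 0.979 CPM against 53, 2809, 682 and 109.6 CPM. Microbrush 6 and 8 were the highest for both, and microbrush 1, a muscle-rich library, followed. The platelet list score, the mean log2(CPM + 1) of its members, was 6.13, 4.27, 3.02, 4.90 and 1.35 in the muscle-rich libraries and 4.03, 7.95, 6.53 and 4.42 in the muscle-poor ones, beside 5.45 to 7.58 on the bare wires and 2.67 to 2.93 in aorta. CLEC1B, a platelet receptor, was at 12, 5.65, 0, 3.09 and 0 CPM against 1.46, 242, 51.1 and 7.58 CPM. The part of blood cells in the differences between the classes was not tested.

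Leukocyte and red cell lists had negative medians too. The median difference was -0.88 over 10 neutrophil genes, -0.47 over 13 monocyte and macrophage genes, -0.19 over 15 T and NK cell genes, -0.14 over 9 B cell genes and -0.28 over 15 erythroid genes. Without microbrush 6 these medians were -0.79, -0.71, -0.28, -0.19 and -0.28 in the same order. With each library left out in turn, the T and NK cell median ran from -0.41 to 0.12 and the B cell median from -0.39 to 0.03. The neutrophil, monocyte and macrophage, and erythroid medians stayed negative. S100A12, a calcium-binding protein of neutrophils, was the only member of these 5 lists whose classes did not overlap in the 9 libraries under TMM scaling, at 40.9, 37.7, 34 and 34.3 CPM in the muscle-poor libraries against 15, 31.3, 0.87, 25 and 0.652 CPM in the muscle-rich ones. Its separation held in 4 of the 6 scalings, and S100A8, of the same protein family, and BPGM, a red cell enzyme, were apart toward the muscle-poor class in 3 of the 6. HBB, β-globin, was at 5471, 818, 820.3, 228 and 149 CPM against 190.3, 985, 567 and 698 CPM, with the muscle-rich microbrush 1 highest, and at 2025 to 33108 CPM on the wires. PTPRC, the leukocyte antigen CD45, was at 789, 354, 164, 103.9 and 52.4 CPM against 130.0, 402, 421 and 154 CPM. Microbrush 9 had the lowest scores of the 9 for the erythroid (1.53), platelet (1.35), neutrophil, T and NK cell (1.93) and B cell (1.71) lists, along with the second highest split score.

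**Figure D3:**
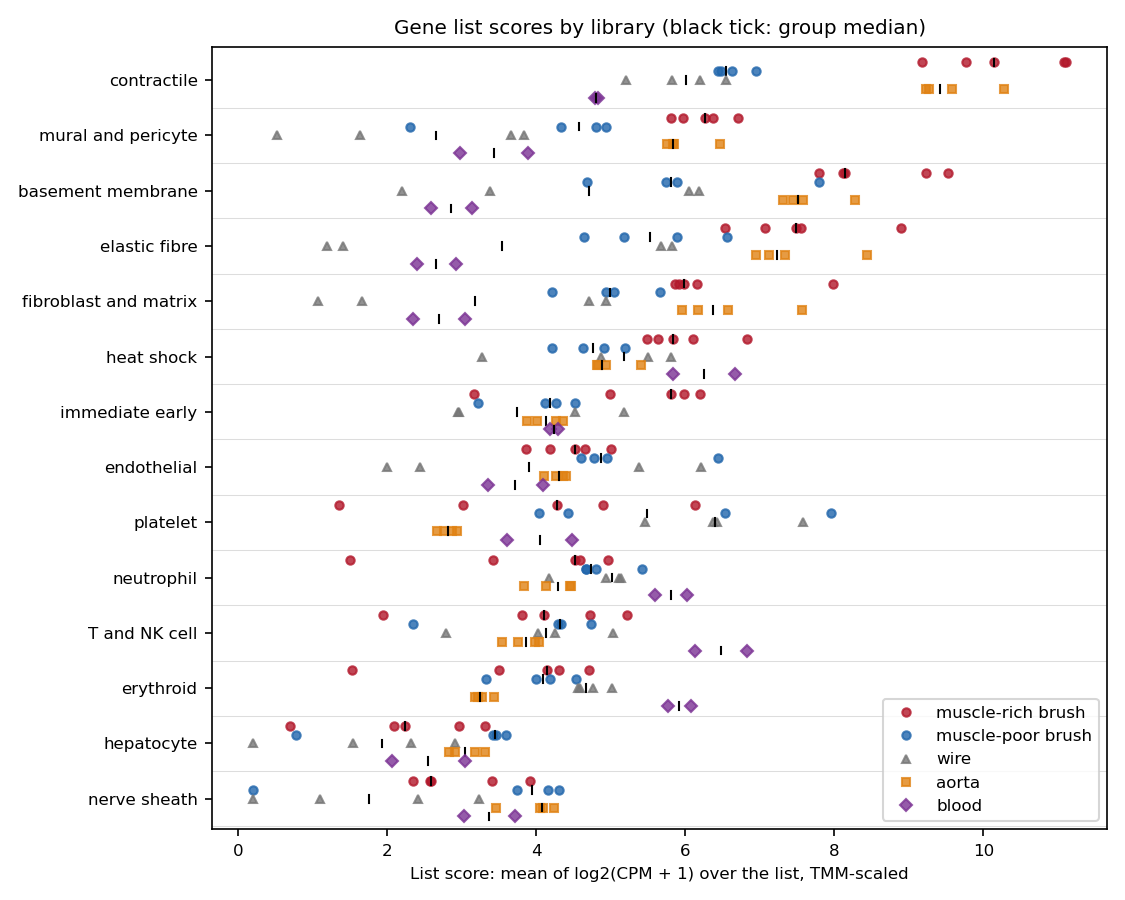
Mean log2(CPM + 1) over the members of 14 gene lists in each library, for muscle-rich brush (5), muscle-poor brush (4), wire (4), aorta (4) and blood (2) libraries, with the group median as a black tick. The contractile scores of the muscle-rich libraries (9.18 to 11.11) lie with those of aorta (9.23 to 10.27) and away from those of the muscle-poor libraries (6.43 to 6.94), while endothelial and platelet scores of the classes overlap.

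Muscle-poor libraries were no uniform group outside the muscle genes. Their contractile scores were close together, at 6.62, 6.94, 6.43 and 6.48, but their mural scores were 4.93, 2.30, 4.33 and 4.80 and their basement membrane scores 5.89, 7.80, 4.67 and 5.73. Microbrush 3, 8 and 10 carried low levels of genes foreign to an artery: the hepatocyte score was 3.60, 3.46 and 3.42 in them, 0.77 in microbrush 6, and 2.82 to 3.31 in aorta, and ALB, albumin, was at 19.4, 0.825, 26.3 and 25.8 CPM. Microbrush 3 and 10 are kidney libraries, and microbrush 8 a liver library, so these levels were found in both organs. The nerve sheath score was 4.30, 0.19, 3.74 and 4.15, beside 3.45 to 4.24 in aorta. In the muscle-rich libraries the hepatocyte score was 2.09, 2.96, 2.24, 3.30 and 0.69, lowest in microbrush 9, the library with the fewest genes at equal depth in that class. Whether the number of genes a library detected takes part in the negative medians of the hepatocyte (-1.12), nerve sheath (-0.87) and adipocyte (-0.98) lists was not tested.

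**Figure D4:**
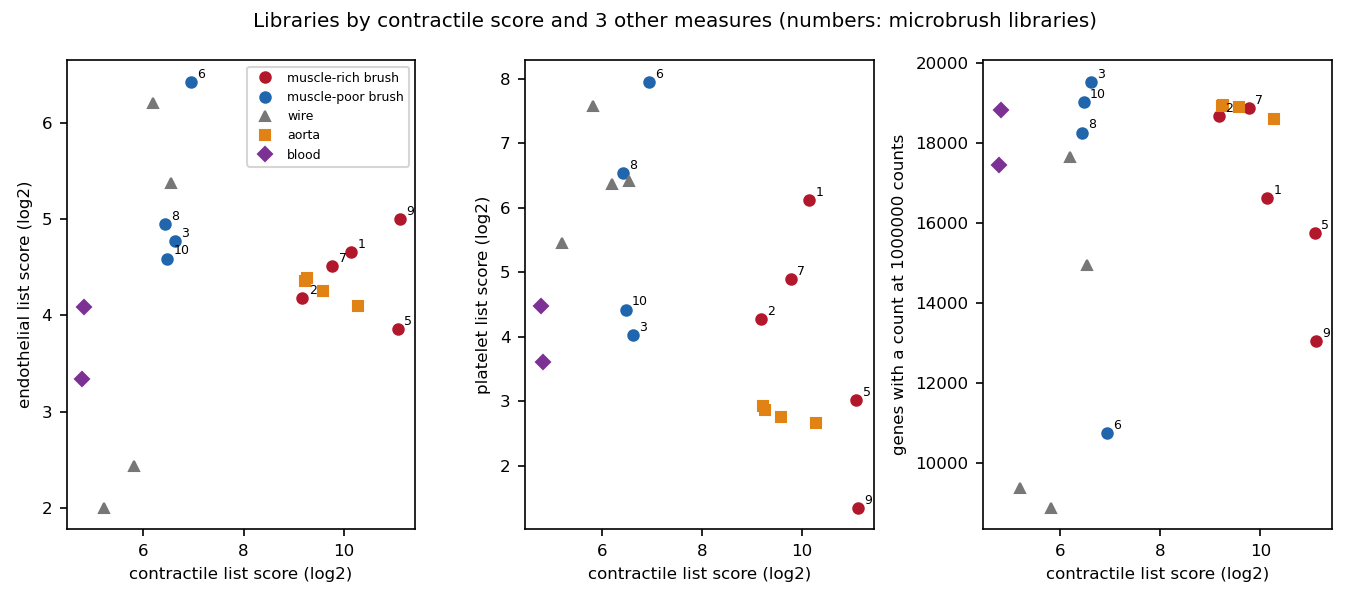
Each library by its contractile list score (x axis, mean log2(CPM + 1)) against its endothelial score, its platelet score and the number of genes with a count at 1000000 counts; numbers mark the microbrush libraries. Microbrush 6 has the highest endothelial (6.43) and platelet (7.95) scores of the 9 and 10748 genes, and microbrush 9 a high contractile score (11.11) with the lowest platelet score (1.35).

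Stress and activation genes were shifted toward the muscle-rich class with much overlap. All 8 kept heat shock genes were positive, with a median of 1.14, none apart in the 9 libraries and 3 apart without microbrush 6 (BAG3, HSPA5 and HSPB1), where 18.2% of all genes were. Their list score was 6.10, 5.48, 5.83, 5.63 and 6.82 in the muscle-rich and 4.21, 5.19, 4.91 and 4.62 in the muscle-poor libraries, which did not overlap. HSPB1, a small heat shock protein abundant in smooth muscle, was at 381, 99.99, 555, 272 and 734 CPM against 20.9, 324, 91.8 and 37.4 CPM. Of 16 immediate early genes, switched on within minutes of a stimulus, 14 were positive (median 1.44). Only 1 was apart, JUN, beside 8.5% of all genes. The list score was higher in the muscle-rich libraries in 3 combinations of pig and organ and differed by -0.05 in the liver of 243K. JUN was at 319.9, 327, 468, 502 and 203 CPM against 76, 69.3, 50 and 103.8 CPM, and overlapped in 2 of the 6 scalings. EGR1 was at 419, 882, 469, 631 and 38.5 CPM against 91.3, 7.42, 46.4 and 113.6 CPM, and FOS at 134, 429, 47.9, 212 and 4.08 CPM against 44.6, 5.77, 54.2 and 105.6 CPM. Microbrush 9 was the exception among the muscle-rich libraries for both, with an immediate early score of 3.17 where the other 4 had 4.99 to 6.19. Mitochondrially encoded genes had scores of 8.62 to 11.12 in the muscle-rich and 9.19 to 9.94 in the muscle-poor class.

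A comparison that the choice of classes did not use is aorta, which has a thick muscle wall, against blood, the fluid around the device. Aorta came from 1 pig and blood from the others, so pig and tissue cannot be told apart in it, and 1 blood library under 100000 counts was left out. Of 17082 genes tested with edgeR's quasi-likelihood test at a Benjamini-Hochberg adjusted p under 0.05, 9.82% were higher in aorta and 18.7% in blood. Of the 1339 genes higher in all muscle-rich libraries, 1327 were tested, and 475 (35.8%) were higher in aorta and 191 (14.4%) in blood. Of the 73 genes higher in all muscle-poor libraries, 72 were tested, and 3 (4.17%) were higher in aorta and 12 (16.7%) in blood. Leaving out blood 1 or blood 3 left 1 blood library, which the fit takes to vary as the aorta libraries do. It moved the shares of these muscle-rich genes to 29.4% or 34.0% in aorta and 3.38% or 23.9% in blood, beside 6.30% or 15.3% and 7.76% or 24.4% of all genes. Without aorta 1, 9.55% of them were higher in blood, beside 14.9% of all genes. For the muscle-poor genes the shares with 1 library left out ran from 1.39% (without blood 1) to 11.3% (without blood 3) in aorta, and from 6.94% (without blood 1 or aorta 1) to 21.1% (without blood 3) in blood. With the shallow blood library included, 3.65% of the muscle-rich genes were higher in aorta and 0.152% in blood, beside 0.985% and 0.505% of all genes.

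By list, all 18 contractile genes, all 9 elastic fibre genes, all 17 fibroblast and matrix genes and 8 of 9 basement membrane genes tested were higher in aorta than in blood. CNN1 was one (log2 fold change 8.06 ± 0.91 SE, n = 4 and 2, edgeR adjusted p = 8.39e-17), and ELN, which overlapped between the brush classes, another (log2 fold change 11.84 ± 1.19 SE, n = 4 and 2, edgeR adjusted p = 8.06e-21). SRF was higher in aorta by less (log2 fold change 1.35 ± 0.49 SE, n = 4 and 2, edgeR adjusted p = 0.0228). Of 12 muscle transcription factors 7 were higher in aorta, of 19 vasoactive genes 8, of 11 mural genes 7, and none of these 3 lists had a member higher in blood. ITPR1 (log2 fold change 0.59 ± 0.57 SE, n = 4 and 2, edgeR adjusted p = 0.477) and ATP2A2 (log2 fold change 0.71 ± 0.56 SE, n = 4 and 2, edgeR adjusted p = 0.366), both apart between the brush classes, did not pass the test between aorta and blood. The heat shock list, positive between the classes, had 2 of 8 members higher in aorta and 5 higher in blood. Of the 15 named genes higher in the muscle-poor class, C3AR1 (log2 fold change -2.27 ± 0.47 SE, n = 4 and 2, edgeR adjusted p = 1.61e-05), HPSE (log2 fold change -1.25 ± 0.42 SE, n = 4 and 2, edgeR adjusted p = 0.0135) and HSH2D (log2 fold change -1.40 ± 0.44 SE, n = 4 and 2, edgeR adjusted p = 0.00733) were higher in blood and the other 12 did not pass.

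Set side by side without a test, the muscle-rich libraries and aorta overlapped in the level of LMOD1 and not in those of some other wall genes, with examples chosen after their values were seen. LMOD1 was at 630.2 to 3403 CPM in the muscle-rich libraries and 1684 to 4103 CPM in aorta. DES was at 468 to 1618 CPM against 57.3 to 95 CPM in aorta. Every muscle-rich library was thus above every aorta library for desmin, which is known to be scarcer in large elastic arteries than in muscular ones. The same was true of NOTCH3 (415 to 1453 against 114.1 to 212 CPM), COL3A1 (3927 to 28006 against 1323 to 3619 CPM) and GJA5 (129.7 to 659 against 35.6 to 51.1 CPM). The pigs differ between these groups, and pig and vessel cannot be told apart. On the wires, DES reached 2.57 to 73.2 CPM and CNN1 0 to 42.5 CPM, ranges that cover 2 of the 4 muscle-poor values of DES and all 4 of CNN1.

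Organ and pig, which the classes did not use either, gave no gene that passed the edgeR test in the 9 libraries. With class, pig and organ in 1 edgeR model over 15768 genes, 0 were called between kidney and liver (0%; smallest adjusted p = 0.801, 145 genes at an unadjusted p under 0.05) and 0 between the pigs (0%; smallest adjusted p = 0.841, 125 genes). The 145 and 125 genes are fewer than a share of 0.05 of those tested, so the edgeR fit was strict here. Its 0 calls do not show that organ or pig had no effect. DESeq2 had 2972 genes between the organs and 2685 between the pigs at an unadjusted p under 0.05. Both are more than a share of 0.05 of those tested. Such an excess cannot tell true differences from a fit that is too lenient, so the DESeq2 calls need caution too. After adjustment DESeq2 called COMP between the organs, and IFI6 and CCDC107 between the pigs. COMP, a cartilage matrix protein also found in vessel walls, was at 167, 95.4 and 494 CPM in the muscle-rich kidney libraries, 2.16 and 18.3 CPM in the muscle-rich liver libraries, 13.1 and 1.78 CPM in the muscle-poor kidney libraries and 0 and 0.516 CPM in the muscle-poor liver ones. Its log2 fold change, kidney over liver, was 4.68 ± 1.12 (SE) with an edgeR adjusted p of 0.801, and 4.90 with a DESeq2 adjusted p of 0.0211. The kidney libraries were thus above the liver libraries within each class for COMP. TNC, a matrix glycoprotein chosen after its values were seen, was at 556, 266 and 1228 CPM in the muscle-rich kidney libraries against 53.2 and 49.7 CPM in the muscle-rich liver ones, while the organs overlapped in the muscle-poor class, and it did not pass (log2 fold change 1.93 ± 1.04, edgeR adjusted p = 0.801).

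IFI6, an interferon-induced gene, lay apart between the pigs in both classes. It was at 119.9, 342 and 352 CPM in the muscle-rich and 236 and 54.4 CPM in the muscle-poor libraries of pig 243K. In pig 248K it was at 22.4 and 6.18 CPM in the muscle-rich and 4.75 and 9.8 CPM in the muscle-poor libraries, so the pigs did not overlap. The log2 fold change, 243K over 248K, was 4.42 ± 0.81 (SE, n = 5 and 4), with an edgeR adjusted p of 0.841 and a DESeq2 adjusted p of 2.59e-08. CXCL10, an interferon-induced chemokine, was the third smallest p of those higher in pig 243K and did not pass either test (log2 fold change 1.97 ± 0.57, edgeR adjusted p = 0.841). Without microbrush 1, 2597 genes had an unadjusted p under 0.05 between the organs and 2659 between the pigs, and still none passed after adjustment in edgeR.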

How the data were processed

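Bulk RNA-seq libraries of microbrush, wire, aorta and blood samples were analysed from the estimated counts per gene that the authors deposited, which Salmon made on Sscrofa11.1 per the submitters' processing notes (DESeq2 is named there too, and versions are not given in the sources used here). Per the labels, RNA was isolated with a scaled-down RNAdvance Tissue protocol and libraries were made with SMARTer Pico. Of 24358 gene identifiers, 14692 had a symbol in the supplied name table; fractional values made up 11.9% of the table and were rounded for the tests only. The 2 most abundant identifiers without a symbol are ENSSSCG00000018061 and ENSSSCG00000018063.

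Classes followed the stated library lists, whose split score is in plain CPM. The members, the 26 gene lists (338 entries) and the tests were chosen with earlier results of these data known. Levels are CPM with TMM factors over the 19 libraries with at least 100000 counts and 5000 genes (edgeR 4.0.16, R 4.3.3). Genes needed 10 counts in 4 of the 9 libraries, and differences are of class medians on log2(CPM + 1), pseudocount 1. The classes were described without a test. Organ and pig were tested in 1 edgeR quasi-likelihood model with class, and aorta against blood in another, with Benjamini-Hochberg adjusted p under 0.05; the fits were tested on simulated data. Each SE is the absolute log2 fold change divided by the square root of the test's F statistic. It is therefore worked back from the test and is no separate estimate of error. Named genes are the 15 per direction with the largest difference among those with no overlap and at least 10 CPM, up to 4 per list with the largest absolute difference, a fixed set of 22, and the 4 smallest p per direction for organ and pig; other list members named in the text were picked after their values were seen. Scalings compared were TMM over all or over the 9 libraries, RLE, plain CPM, and totals without the 2 identifiers or without vessel wall genes. DESeq2 1.42.0 was the alternative test. Blood 2 and microbrush 4 were left out of scaling. No sequence was used.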

Additional observations from a re-analysis of the deposited data

Results flagged for a closer look

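Among 58 sets of 4 or 5 libraries examined (depth measures and list scores in each class), 7 had a library far from the rest by Dixon's criterion, which marks about 1 in 20 by chance. In the muscle-rich class, microbrush 9 had a fibroblast and matrix score of 7.98, where the other 4 had 5.87 to 6.16. The other 6 all concern microbrush 6 in the muscle-poor class. Its total was 10188552 counts beside 1144932 to 1862823, and it had 10748 genes at 1000000 counts beside 18264 to 19534. Its scores were 0.77 for hepatocyte genes (others 3.42 to 3.60), 0.19 for nerve sheath genes (3.74 to 4.30), 1.19 for adipocyte genes (3.95 to 4.36) and 9.19 for mitochondrially encoded genes (9.86 to 9.94). These 6 values belong to 1 library and are not independent of each other.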

How the results depend on the processing

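With 5 and 4 libraries, a gene counts as apart or not on single values, and the number higher in the muscle-poor class moved most. Against 1339 and 73 genes, RLE scaling gave 680 and 362; the muscle-poor count was 110 with TMM over the 9 libraries, 203 in plain CPM, 129 without the 2 unnamed identifiers, 145 without vessel wall genes in the totals, 44 at a minimum of 50 counts and, in a setting added after seeing the data, 623 without microbrush 3 and 10. Smaller sets gave more genes, as fewer libraries need to be ordered: 4636 and 4098 in kidney, 3127 and 1408 in liver, 2356 and 568 in pig 243K, and 4483 and 3944 in pig 248K. Leaving out each library, with the filter redone, gave 1376 to 2860 and 81 to 1968. The fibroblast and matrix median turned to -0.15 (RLE) and -0.056 (plain CPM); the cause was not tested. RLE and plain CPM each took the median of all genes from -0.03 to -0.53. Of the other list medians and named genes, 507 and 2824 values moved by less than the spread between libraries and 66 and 196 by more, none with a change of sign of a gene apart in the 9 libraries. Aorta against blood gave 1677 and 3198 genes, 158 and 81 with all blood libraries, and 1115 to 2691 and 1373 to 4299 with 1 library left out. DESeq2 called 1 gene between the organs, and 1 in each direction between the pigs, where edgeR called 0. The labels give no replicate numbers to pair libraries by, so pig and organ were the only matching used.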

Other observations

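Microbrush 4, the library in neither class, had 2428828 counts in 3831 genes, 48.4% of them in the 2 unnamed identifiers. In plain CPM it held 231.8 of MYH11 and 2911 of MYL9, with ACTA2 and ITGA7 at 0, so MYL9 was as high there as in the muscle-rich microbrush 5 (2593 in plain CPM). MYL9 in microbrush 6 and 8 was at 3643 and 1872 in plain CPM while ITGA7, an integrin subunit of muscle, was at 0.981 and 3.51.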
